A study of Danio rerio with 6 samples.

Results

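Growth factors are secreted proteins that bind receptor tyrosine kinases, cell surface receptors whose inner part phosphorylates tyrosines and so starts the Ras, MAP kinase and PI3 kinase cascades. In the kidney such pairs are best known from development in mammals, where ligands of the mesenchyme such as GDNF and the fibroblast growth factors signal to Ret and Fgfr2 in the epithelium that becomes the collecting ducts. In fish the kidney is also where blood forms in the adult. The genes described here are those whose single symbol on the array belongs to the FGF, PDGF, VEGF, IGF, midkine, HGF, EGF and ERBB, KIT, CSF or GDNF and RET families. They number 39 of the 8793 genes with a probe set, and they consist of 20 ligands, 13 receptor tyrosine kinases and 6 other genes matched by name. A gene with several probe sets was read from the one with the highest mean over the 6 arrays.

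The 6 arrays were zebrafish 3' expression arrays, and all fish were adults that carried the Tg(jam1a:EGFP) reporter, whose EGFP marks cells that use the jam1a promoter. Irradiated collecting ducts came from fish given 25 Gy of X-rays, and unirradiated collecting ducts from fish without that treatment. Whole kidney came from fish of the same line, and no X-ray dose is given for it. Each group had 2 arrays, and each array held RNA pooled from 5 fish, so their number limits the precision and the spread between single fish is not seen. Ducts were picked out by their fluorescence, and whole kidney still contains them. How long after irradiation the ducts were taken is not given here. Levels are given per array as log2 RMA values. Differences were tested with limma, with p adjusted by Benjamini-Hochberg over all 15502 probe sets and a threshold of 0.05, and each log2 fold change is followed by its SE. The p-values measure the spread between pools.

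Most tubule markers followed the tissue labels. The EGFP control probe set read 6.21 and 6.14 in irradiated ducts, 6.49 and 6.41 in unirradiated ducts and 6.05 and 6.21 in whole kidney, with irradiated ducts overlapping whole kidney. Among 17 measured markers of distal tubule and collecting duct, 13 were higher and 0 lower in irradiated ducts against whole kidney, and 10 were higher and 0 lower in unirradiated ducts against it. Without passing, 3 of these 17 were negative in unirradiated and 2 in irradiated ducts. Proximal tubule markers mostly ran the other way. Of 9, 5 were lower and 1 higher in unirradiated ducts, and 3 were lower and 1 higher in irradiated ducts. Of all genes, 4.11% were higher and 3.32% lower in unirradiated ducts, and 6.40% and 5.16% in irradiated ducts. The 2 whole kidney arrays were less alike than the duct arrays, their SD over probe sets (root mean square) being 0.465, beside 0.250 in irradiated and 0.246 in unirradiated ducts. The GAPDH 3' minus 5' difference, a sign of RNA quality, was 1.13 and 0.97 in irradiated ducts, 1.16 and 2.52 in unirradiated ducts and 0.55 and 0.91 in whole kidney. Spiked hybridisation controls averaged 9.39 and 9.64, 10.66 and 11.15, and 8.48 and 10.24 in these groups. Array medians lay between 5.82 and 5.88, and a level under them is not shown to be above background. By that measure 14 of the 39 genes lay above the medians on all 6 arrays, 19 lay under them on all 6, and 6 lay on both sides.

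The first question was which of these genes differed between collecting ducts and whole kidney. A small group of ligands and receptors was higher in unirradiated ducts, led by the PDGF A chain gene pdgfab, the midkine gene mdka, the HGF receptor gene met, the FGF ligand gene fgf10a and the FGF receptor gene fgfr2, by 3.15-fold to 5.54-fold. The receptor gene erbb2 was 2.42-fold lower, a call that 6 of 13 alternatives kept. The other 33 genes did not pass. Past the threshold were thus 6 of 39 genes, 5 higher and 1 lower, while of all probe sets 7.26% passed, 4.27% higher and 2.99% lower. At an unadjusted p under 0.05 there were 14 of 39, against 26.9% of all probe sets. Both unirradiated arrays lay above both kidney arrays in 14 genes and under them in 6, against 28.9% and 27.7% of all probe sets. With 1 probe set per gene the shares were 25.5% and 32.0% of all genes. Ligands had a median log2 fold change of 0.22 and receptors one of 0.07, beside -0.04 over all genes.

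**Figure D1:**
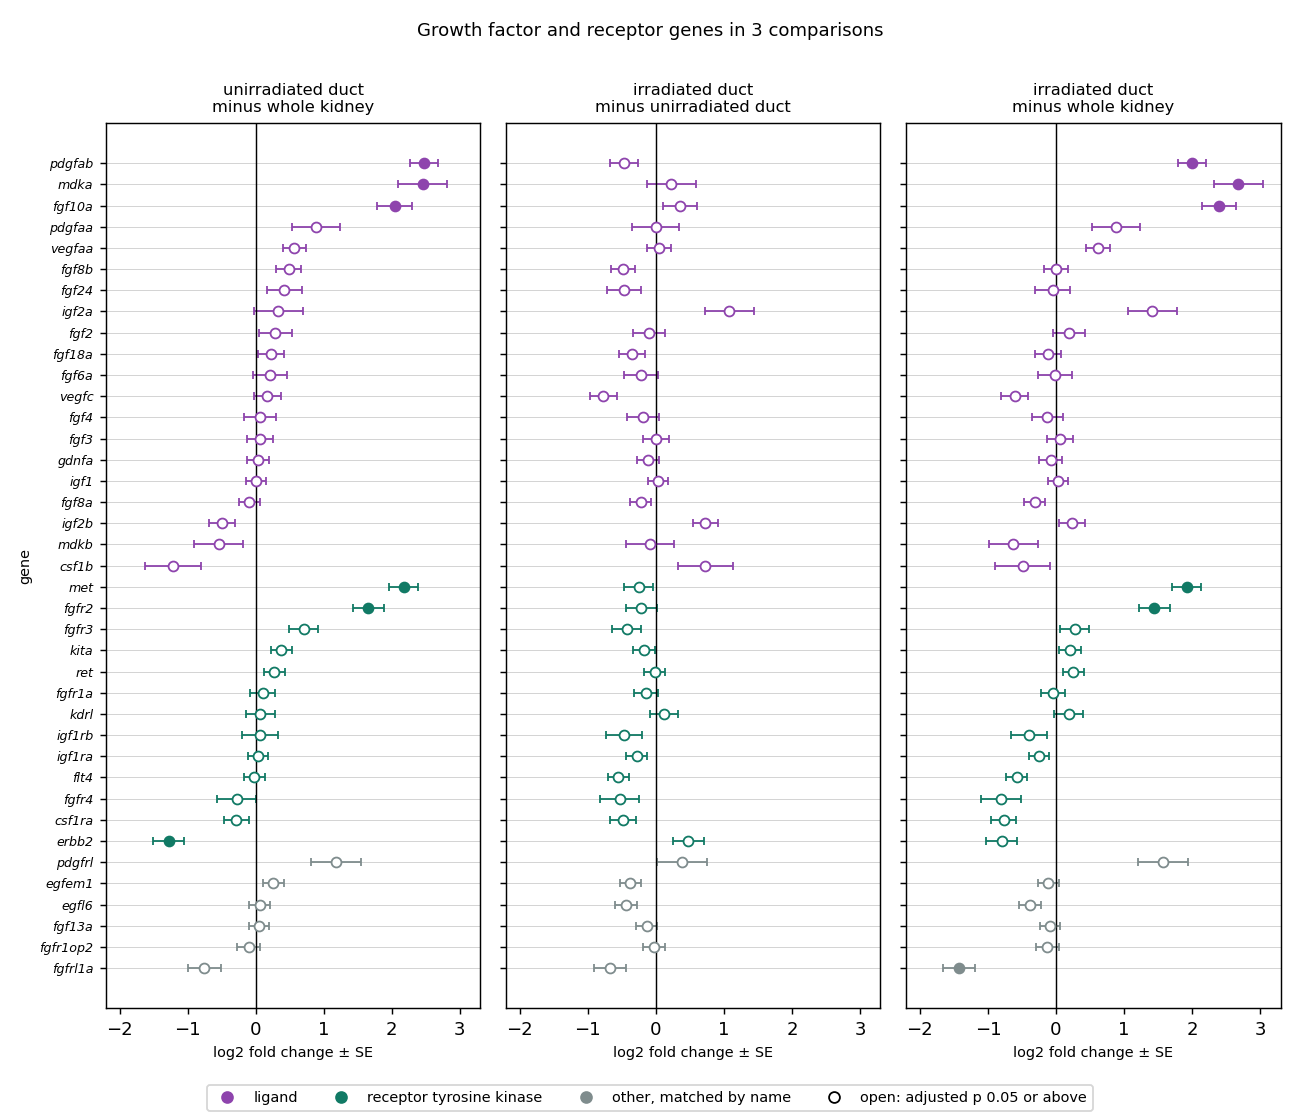
Log2 fold changes (x axis, bars show the moderated SE) of all 39 genes (y axis, ordered within ligands, receptor tyrosine kinases and others by the first comparison) in 3 comparisons with 2 arrays a group, filled where the adjusted p was under 0.05. Ligands and receptors past the threshold were 3 and 2 higher in each duct comparison against whole kidney, and none passed between irradiated and unirradiated ducts.

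Among the ligands, pdgfab read 9.66 and 9.42 in unirradiated ducts, against 7.22 and 6.91 in whole kidney. Its product is a PDGF A chain, which in vertebrates acts on mesenchymal cells through the PDGF alpha receptor. The log2 fold change was 2.47 ± 0.21 SE (5.54-fold, adjusted p = 0.00601), and the groups were far apart relative to their spread. Its paralog pdgfaa read 7.86 and 7.97 in unirradiated ducts, against 7.50 and 6.56 in whole kidney. Both duct arrays lay above both kidney arrays, but the difference of 0.89 ± 0.35 did not pass (adjusted p = 0.174). It was 1.36 without whole kidney replicate 1.

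The midkine gene mdka, which encodes a heparin-binding growth factor, read 8.24 and 8.14 in unirradiated ducts, against 6.05 and 5.43 in whole kidney. The log2 fold change of mdka was 2.45 ± 0.36 (5.48-fold, adjusted p = 0.0207). One kidney array was under its median, which leaves the size of this difference uncertain. Its paralog mdkb read 5.34 and 5.30 in unirradiated ducts, against 6.39 and 5.33 in whole kidney. One kidney array, the only 1 of all 6 arrays above its median, stood well above the other 3. The difference of -0.54 ± 0.36 did not pass (adjusted p = 0.382), and it was -1.07 without whole kidney replicate 2.

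The ligand fgf10a and the receptor fgfr2 were both higher. FGF10 signals from mesenchyme to the epithelial form of FGFR2 in mammals. The probe set of fgf10a read 6.87 and 7.003 in unirradiated ducts, against 4.78 and 5.01 in whole kidney (2.04 ± 0.25, 4.11-fold, adjusted p = 0.0147). Both kidney values were under the medians, so that this difference has an uncertain size. The probe set of fgfr2 read 8.99 and 9.13 in unirradiated ducts, against 7.59 and 7.21 in whole kidney (1.66 ± 0.23, 3.15-fold, adjusted p = 0.0185). A second probe set of fgfr2 with lower levels read 5.85 and 5.41 in unirradiated ducts, against 5.14 and 5.76 in whole kidney, and its groups overlapped (0.18 ± 0.27, adjusted p = 0.711). The mean of both probe sets gave 0.92 (adjusted p = 0.0396).

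The receptor gene met showed a clear separation as well. It encodes the receptor of hepatocyte growth factor, found mainly on epithelial cells. Its levels were 8.13 and 8.47 in unirradiated ducts, against 5.99 and 6.27 in whole kidney (2.17 ± 0.21, 4.51-fold, adjusted p = 0.00814). The receptor gene erbb2, whose product pairs with other EGF receptor family members and has no ligand of its own, was lower in ducts. It read 8.43 and 8.53 in unirradiated ducts, against 9.63 and 9.89 in whole kidney (-1.28 ± 0.23, adjusted p = 0.034).

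**Figure D2:**
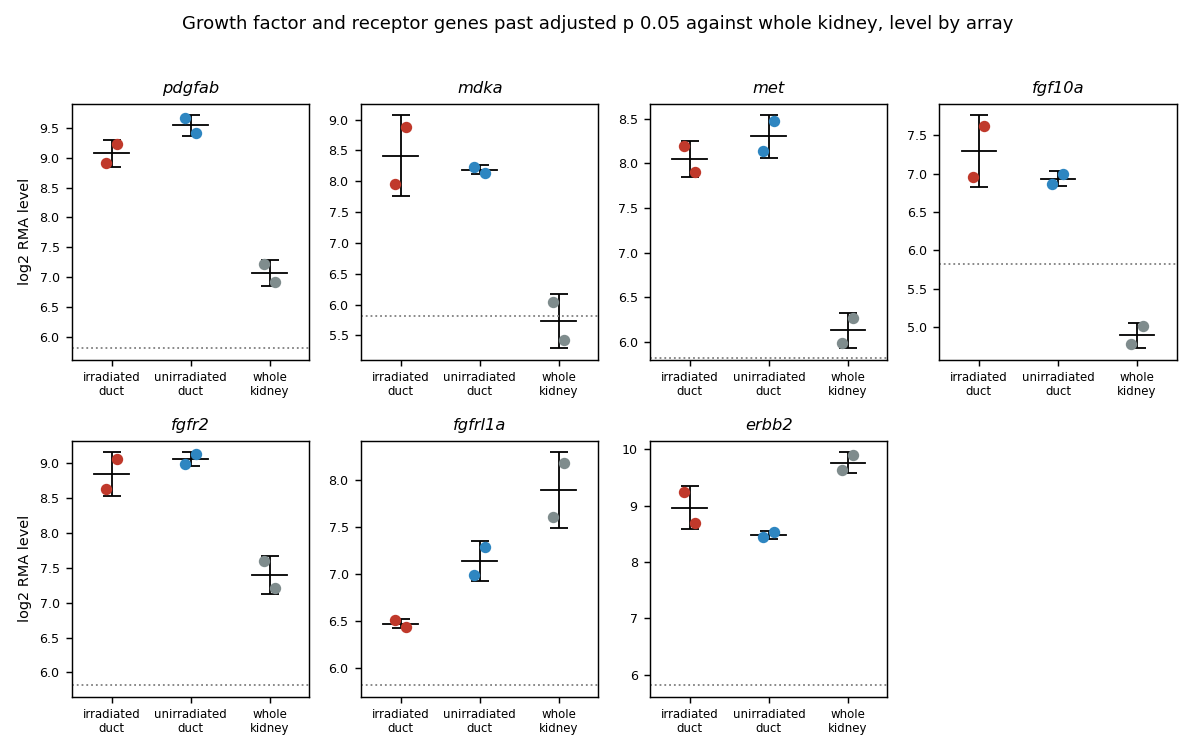
Log2 RMA level (y axis) on each of the 6 arrays for the 7 genes with an adjusted p under 0.05 against whole kidney in either duct group; points are arrays, bars the mean ± SD of 2 arrays, and the dotted line the lowest array median (5.82). In pdgfab, mdka, met, fgf10a and fgfr2 all 4 duct arrays lay above both kidney arrays, and in fgfrl1a and erbb2 all 4 lay under them.

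These calls rest on few arrays. Without either unirradiated duct array 0 of the 39 genes passed, as did 0 of all 15502 probe sets, while log2 fold changes of the 5 higher genes stayed between 1.59 and 2.59. With the hybridisation controls of each array set equal, a scaling that moved the median of all probe sets to -1.54, against 0.01 before, the 5 genes stayed positive (0.11 to 0.92) with none past the threshold.

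The remaining FGF ligands were low throughout. Probe sets of fgf2, fgf3, fgf4, fgf6a, fgf8a, fgf8b, fgf18a and fgf24 lay under the medians of all 6 arrays, with log2 fold changes between -0.09 (fgf8a) and 0.48 (fgf8b, 3.21 and 3.47 in unirradiated ducts, against 2.80 and 2.93 in whole kidney) and none past the threshold. At such levels a difference in transcript may not be detectable. Among the other FGF receptors, fgfr3 read 5.53 and 5.84 in unirradiated ducts, against 4.77 and 5.20 in whole kidney (0.70 ± 0.21, adjusted p = 0.108). The difference was 0.92 without whole kidney replicate 2, and fgfr3 lay above the median on only 1 of the 6 arrays. The receptor fgfr4 read 7.13 and 7.40 in unirradiated ducts, against 7.65 and 7.44 in whole kidney (-0.28 ± 0.29, adjusted p = 0.577), and fgfr1a was under the medians with a difference of 0.10 ± 0.18.

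For the VEGF family, whose receptors sit on blood and lymph vessel cells, no difference between ducts and kidney passed. The ligand vegfaa read 8.22 and 8.15 in unirradiated ducts, against 7.65 and 7.59 in whole kidney. Both duct arrays were higher, by 0.57 ± 0.17 (adjusted p = 0.107). Its receptor gene kdrl, a defining gene of endothelium, read 9.74 and 10.24 in unirradiated ducts, against 9.96 and 9.89 in whole kidney (0.07 ± 0.21). Of 8 measured endothelial markers outside the VEGF family, 2 were lower in unirradiated ducts and 0 higher, beside 3.32% and 4.11% of all genes. All 8 had negative fold changes, and the median was -0.61. Their summed level, added up after taking values off the log2 scale, was 1631 and 1689 in unirradiated ducts, against 2697 and 2304 in whole kidney. The ligand vegfc (0.17 ± 0.20) and its receptor gene flt4 (-0.02 ± 0.16) had overlapping groups.

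Insulin-like growth factors act through Igf1ra and Igf1rb and in fish are made in many tissues. The ligand gene igf2b read 8.30 and 8.45 in unirradiated ducts, against 9.07 and 8.67 in whole kidney. The difference of -0.49 ± 0.19 did not pass (adjusted p = 0.171), and it was -0.69 without whole kidney replicate 2. The paralog igf2a had overlapping groups (0.33 ± 0.36), and igf1, igf1ra and igf1rb lay under the medians on every array with differences of 0.01 to 0.06. A second igf1rb probe set also lay under them (0.33 ± 0.28).

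The ligand of macrophages, csf1b, read 6.30 and 7.39 in unirradiated ducts, against 8.40 and 7.72 in whole kidney. The 2 duct arrays were far apart, the higher one close to the lower kidney array, and the difference of -1.22 ± 0.41 did not pass (adjusted p = 0.13). Its receptor gene csf1ra, a defining gene of macrophages and of one type of pigment cell, lay under the medians on all 6 arrays, with 4.52 and 4.71 in unirradiated ducts, against 5.08 and 4.72 in whole kidney (-0.28 ± 0.19, adjusted p = 0.387). Myeloid markers outside the list were lower past the threshold in unirradiated ducts for 4 of 13 genes and higher for 0. Of all genes 3.32% were lower and 4.11% higher. The summed myeloid level was 10898 and 11265, against 24039 and 26027 in whole kidney. In such bulk samples fewer cells of a type and less RNA per cell cannot be told apart, and the part of myeloid cells in the csf1b values was not tested.

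The pair best known from the branching of mammalian collecting ducts, gdnfa and ret, lay under the medians on all 6 arrays. For ret the levels were 5.44 and 5.35 in unirradiated ducts, against 5.20 and 5.05 in whole kidney (0.27 ± 0.15, adjusted p = 0.321), and a second probe set read 0.06 ± 0.20. The ligand gdnfa differed by 0.04 ± 0.16. The stem cell factor receptor kita, known in zebrafish from pigment cells, was also under the medians, with 4.23 and 4.19 in unirradiated ducts, against 3.90 and 3.76 in whole kidney (0.38 ± 0.16, adjusted p = 0.2). None of these differences passed, and at these levels the arrays may not detect one.

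The 6 other genes matched by name were mixed. The FGF receptor-like gene fgfrl1a, whose product lacks a kinase domain, read 6.99 and 7.29 in unirradiated ducts, against 7.61 and 8.18 in whole kidney (-0.75 ± 0.24, adjusted p = 0.115). The difference was -1.04 without whole kidney replicate 1. The PDGF receptor-like gene pdgfrl read 6.24 and 6.67 in unirradiated ducts, against 5.30 and 5.24 in whole kidney (1.18 ± 0.37, adjusted p = 0.112). Both kidney values were under the medians, so that this difference has an uncertain size. The second probe set of pdgfrl, under the medians throughout, read -0.13 ± 0.17. The genes egfem1 and egfl6, which encode proteins with EGF-like repeats, fgf13a, a member of the FGF homologous factors that act inside cells, and fgfr1op2, named for a fusion partner of FGFR1, differed by -0.10 to 0.26 with none past the threshold.

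Markers of other cell types also differed between ducts and kidney. Past the threshold, smooth muscle markers were higher in unirradiated ducts for 5 of 8 genes and lower for 0. Of all genes 4.11% were higher and 3.32% lower in that comparison. Without passing, 1 smooth muscle gene was negative (-0.84). The summed smooth muscle level was 11579 and 10760, against 2001 and 801 in whole kidney. Fibroblast markers were higher past the threshold for 3 of 11 and lower for 0, and 2 were negative without passing (lowest -0.14). Their summed level was 9254 and 7695, against 3093 and 1366. Among them the matrix gene dcn was higher by 2.296 ± 0.29 (adjusted p = 0.0146) and the mesenchymal transcription factor gene prrx1a by 1.71 ± 0.33 (adjusted p = 0.0405). Skeletal muscle markers were higher for 3 of 14 and lower for 0, erythroid markers lower for 7 of 13 and higher for 0, and lymphoid markers had 0 of 5 past the threshold. The part of these cell types in the values of pdgfab, mdka, fgf10a, fgfr2 and met was not tested.

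**Figure D3:**
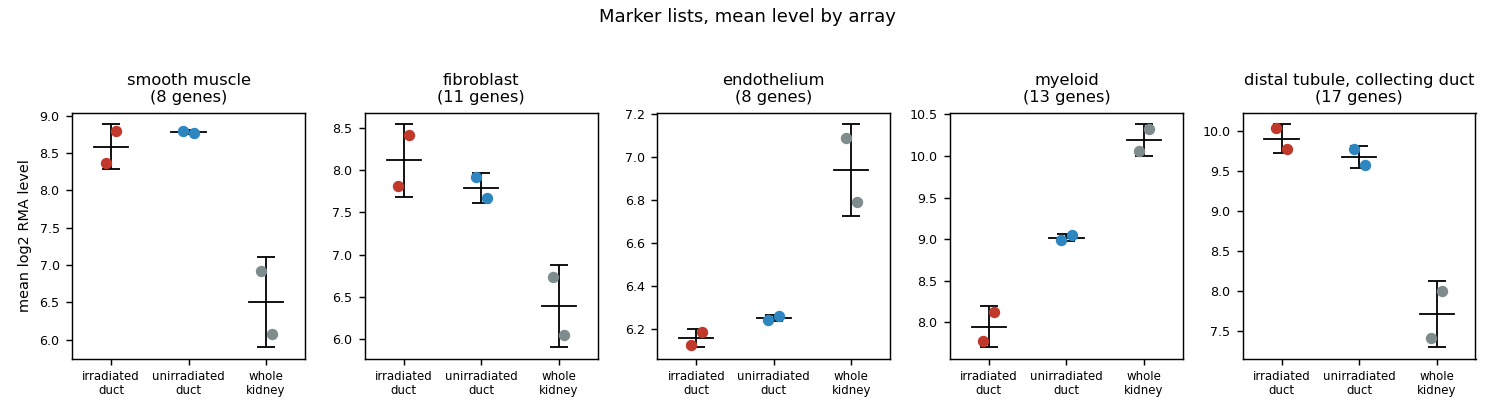
Mean log2 RMA level over the measured genes of 5 marker lists (y axis) on each of the 6 arrays; points are arrays and bars the mean ± SD of 2 arrays. Duct arrays lay above kidney arrays for smooth muscle, fibroblast and distal tubule and collecting duct markers and under them for endothelial and myeloid markers, with myeloid markers lowest in irradiated ducts (7.77 and 8.13).

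The second question was what 25 Gy of X-rays changed in the ducts. None of the 39 genes passed the threshold in irradiated against unirradiated ducts by limma, and of all probe sets 0.168% did (0.0774% higher, 0.0903% lower). At an unadjusted p under 0.05 there were 8 of the 39, against 14.3% of all probe sets, and array weights and the fit on the 4 duct arrays alone also gave 0. The log2 fold changes of largest size belonged to the ligands igf2a (1.08), vegfc (-0.77), igf2b (0.73) and csf1b (0.73), and among receptors to flt4 (-0.55). None of the differences of the 39 genes given next passed the test. Without any 1 of the 4 duct arrays 0 of all probe sets passed in this comparison, against 26 with all arrays.

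The gene igf2a read 8.17 and 7.83 in irradiated ducts, against 7.32 and 6.51 in unirradiated ducts. Both irradiated arrays lay above both unirradiated ones, and whole kidney (6.23 and 6.94) overlapped with the unirradiated ducts. The difference was 1.08 ± 0.36 (2.11-fold, adjusted p = 0.3). Its paralog igf2b read 9.09 and 9.12 in irradiated ducts, against 8.30 and 8.45 in unirradiated ducts (0.73 ± 0.19, adjusted p = 0.239). The receptor genes igf1ra and igf1rb stayed under the array medians, at -0.28 ± 0.15 and -0.46 ± 0.26.

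The lymphatic growth factor gene vegfc read 6.06 and 6.04 in irradiated ducts, against 6.83 and 6.81 in unirradiated ducts. The arrays of each group nearly coincided and the groups did not overlap (-0.77 ± 0.20, adjusted p = 0.239). The SD of vegfc was 0.015 in each duct group and 0.33 in whole kidney, and this SE and p take in the kidney arrays. For flt4, which encodes its receptor, levels were 5.78 and 5.69 in irradiated ducts, against 6.37 and 6.21 in unirradiated ducts (-0.55 ± 0.16, adjusted p = 0.255). Irradiated values of flt4 were under the array medians and unirradiated values above them. The ligand vegfaa differed by 0.05 ± 0.17 and the receptor gene kdrl by 0.12 ± 0.21. Endothelial markers had 0 of 8 past the threshold after irradiation, with a summed level of 1513 and 1591 in irradiated ducts, against 1631 and 1689 in unirradiated ducts.

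Ligand and receptor of the macrophage growth factor differed in sign. The ligand csf1b read 7.69 and 7.45 in irradiated ducts, against 6.30 and 7.39 in unirradiated ducts (0.73 ± 0.41, adjusted p = 0.467), and 1 unirradiated array decided its size. The receptor gene csf1ra read 4.18 and 4.08 in irradiated ducts, against 4.52 and 4.71 in unirradiated ducts, all under the medians (-0.49 ± 0.19, adjusted p = 0.337). Myeloid markers fell past the threshold for 3 of 13 genes and rose for 0, beside 0.0682% of all genes in each direction. Their median was -1.47, though 3 of 13 were positive, the highest at 1.47. The summed myeloid level was 6286 and 8871 in irradiated ducts, against 10898 and 11265 in unirradiated ducts. Lymphoid markers fell for 1 of 5. These 4 calls were lost with the replicate block and without any 1 of the duct arrays, settings in which no probe set passed in this comparison. The part of leukocytes in the csf1ra values was not tested. Skeletal muscle markers had 0 of 14 past the threshold after irradiation, but all 14 were negative (median -0.67). Their summed level was 2233 and 1465 in irradiated ducts, and it differed between the 2 unirradiated arrays (1947 and 5432).

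The genes past the threshold between ducts and kidney did not pass it after irradiation. Values of mdka were 7.95 and 8.88 in irradiated ducts, on both sides of the unirradiated pair (0.23 ± 0.36). Those of fgf10a were 6.96 and 7.62 (0.36 ± 0.25), those of fgfr2 8.63 and 9.07 (-0.21 ± 0.23) and those of met 8.19 and 7.91 (-0.25 ± 0.21), and the groups of these probe sets overlapped. The second fgfr2 probe set read 6.13 and 6.39 in irradiated ducts, against 5.85 and 5.41 in unirradiated ducts, without overlap (0.63 ± 0.27, adjusted p = 0.376), and the mean of both probe sets was positive (0.21, adjusted p = 0.64). The ligand gene pdgfab read 8.91 and 9.23 in irradiated ducts, both under the unirradiated values of 9.66 and 9.42 (-0.47 ± 0.21, adjusted p = 0.38). The receptor gene erbb2 read 9.24 and 8.69 in irradiated ducts, both above the unirradiated 8.43 and 8.53 (0.48 ± 0.23, adjusted p = 0.41).

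**Figure D4:**
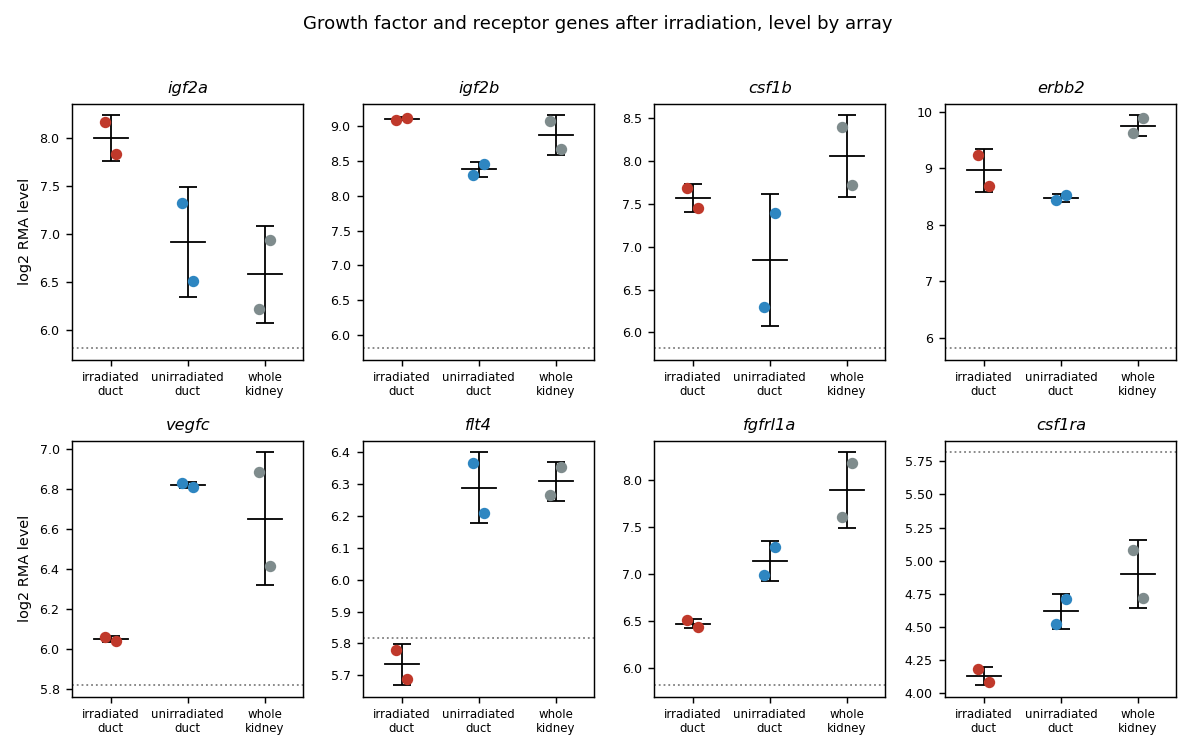
Log2 RMA level (y axis) on each of the 6 arrays for 8 genes described after irradiation; points are arrays, bars the mean ± SD of 2 arrays, and the dotted line the lowest array median (5.82). Irradiated arrays lay above unirradiated ones in igf2a, igf2b, csf1b and erbb2 and under them in vegfc, flt4, fgfrl1a and csf1ra, none with an adjusted p under 0.05.

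Small negative differences were common among the receptors, and among low probe sets in general. Receptors had a median log2 fold change of -0.25 after irradiation and ligands one of -0.09, beside -0.02 over all genes. The ligand median was 0.23 with low probe sets left out, and both turned positive, to 1.14 for receptors and 1.30 for ligands, when centred on the hybridisation controls, which moved the median of all probe sets to 1.34. Irradiated arrays lay under both unirradiated arrays in 19 of the 39 genes, against 33.0% of all probe sets, and above them in 4, against 23.8%. With 1 probe set per gene the shares were 29.4% and 26.1% of all genes. Of the 19 genes under the array medians throughout, 13 were lower in this sense and 0 higher, and among all probe sets that low 46.8% were lower and 10.4% higher. Of the 14 genes above the medians throughout, 4 were higher (igf2a, igf2b, csf1b and erbb2) and 4 lower (vegfc, pdgfab, fgfr4 and fgfrl1a), against 35.1% and 19.9% of all such probe sets. In fgfr4 the levels were 7.12 and 6.35 in irradiated ducts, against 7.13 and 7.40 in unirradiated ducts (-0.53 ± 0.29). The lowest log2 fold changes among the low genes were those of csf1ra (-0.49 ± 0.19), fgf8b (-0.49 ± 0.18) and fgf24 (-0.47 ± 0.26). For ret the difference was -0.01 ± 0.15. Its second probe set, also under the medians, was higher without overlap (0.49 ± 0.20, adjusted p = 0.348), and the second one of igf1rb was lower (-0.47 ± 0.28, adjusted p = 0.489).

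The third comparison set irradiated ducts against whole kidney, and it shares the kidney arrays with the first and the irradiated arrays with the second. Its groups differ in tissue and in X-ray treatment at once, which this comparison alone cannot tell apart. The same 5 genes were higher (shared by both duct comparisons), and fgfrl1a was lower, so that 6 of 39 genes passed, while of all probe sets 10.5% did, 6.21% higher and 4.24% lower. At an unadjusted p under 0.05 there were 15 of 39, against 26.4% of all probe sets. Both irradiated arrays lay above both kidney arrays in 14 genes and under them in 12, against 23.4% and 31.9% of all probe sets. With 1 probe set per gene the shares were 23.2% and 34.2% of all genes. The log2 fold changes were 2.68 ± 0.36 for mdka (6.41-fold, adjusted p = 0.0112), 2.40 ± 0.25 for fgf10a (5.27-fold, adjusted p = 0.00627), 2.004 ± 0.21 for pdgfab (4.01-fold, adjusted p = 0.00599), 1.92 ± 0.21 for met (3.79-fold, adjusted p = 0.00689) and 1.44 ± 0.23 for fgfr2 (2.72-fold, adjusted p = 0.0176). The second fgfr2 probe set read 6.13 and 6.39 in irradiated ducts, against 5.14 and 5.76 in whole kidney. Its difference did not pass (0.81 ± 0.27, adjusted p = 0.133). The gene fgfrl1a read 6.51 and 6.44 in irradiated ducts, against 7.61 and 8.18 in whole kidney (-1.42 ± 0.24, 2.68-fold lower, adjusted p = 0.0207). Its unirradiated values of 6.99 and 7.29 lay between the other groups without overlap.

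Marker lists moved in this comparison too. Past the threshold in irradiated ducts against whole kidney, fibroblast markers were higher for 7 of 11 genes and smooth muscle markers for 5 of 8. Myeloid markers were lower for 10 of 13 and lymphoid markers for 3 of 5. Each list had 0 calls the other way, and of all genes 6.40% were higher and 5.16% lower. Without passing, 2 fibroblast and 2 smooth muscle genes were negative, and 1 myeloid gene was positive (1.46). Irradiated duct replicate 2 had the higher values of mdka, fgf10a, pdgfab, fgfr2 and pdgfrl and the lower value of met. Its summed fibroblast level was 15524, against 9218 in irradiated duct replicate 1, and its summed smooth muscle level 11945, against 7960. In unirradiated ducts the summed fibroblast level was higher in replicate 1 (9254 against 7695). There mdka and pdgfab were higher in replicate 1, and fgf10a, fgfr2, pdgfrl and met lower. The part of these cell types in the values was not tested.

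Some differences came near the threshold here. The gene pdgfrl read 6.31 and 7.38 in irradiated ducts, against 5.30 and 5.24 in whole kidney, both under the medians (1.57 ± 0.37, adjusted p = 0.052). It passed in 4 of 13 alternatives, without irradiated duct replicate 1 among them (2.11, adjusted p = 0.0407), and was 1.03 without irradiated duct replicate 2 (adjusted p = 0.151). The second probe set of pdgfrl differed by -0.03 ± 0.17, and the mean of both by 0.77 (adjusted p = 0.0781). For igf2a the difference was 1.41 ± 0.36 (adjusted p = 0.0657), and 1.77 without whole kidney replicate 2. For csf1ra it was -0.77 ± 0.19 (adjusted p = 0.059), and -0.95 without that array. Other negative values belonged to erbb2 (-0.80 ± 0.23, adjusted p = 0.0889), fgfr4 (-0.81 ± 0.29, adjusted p = 0.145), flt4 (-0.58 ± 0.16, adjusted p = 0.0753) and vegfc (-0.60 ± 0.20, adjusted p = 0.123). Positive ones belonged to vegfaa (0.62 ± 0.17, adjusted p = 0.0829) and pdgfaa (0.88 ± 0.35, adjusted p = 0.177). The lowest ligand value was that of mdkb (-0.63 ± 0.36, adjusted p = 0.339), whose groups overlapped. The ligands csf1b (-0.49 ± 0.41) and fgf8a (-0.31 ± 0.16) were negative too.

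Several calls of this comparison were lost when 1 array was left out. Without irradiated duct replicate 2 the calls of mdka (2.22, adjusted p = 0.0533), pdgfab (1.84, adjusted p = 0.0511), fgfr2 (1.22, adjusted p = 0.105) and fgfrl1a (-1.39, adjusted p = 0.127) were lost, and 2 genes, met and fgf10a, passed. Without irradiated duct replicate 1 met (1.78, adjusted p = 0.0558), fgfr2 (1.66, adjusted p = 0.0601) and fgfrl1a (-1.46, adjusted p = 0.115) did not pass. On the compared groups only fgfr2 (adjusted p = 0.0543) and fgfrl1a (adjusted p = 0.0548) did not pass. Leaving out either unirradiated array repeats that fit, since an array alone in its group adds nothing to the spread. The ligand fgf10a passed without any 1 of the 6 arrays.

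Genes further along the pathway were read from 4 lists. Of 13 measured inhibitors and targets of receptor tyrosine kinase signalling (feedback list), 1 was lower and 0 higher in unirradiated ducts against whole kidney. None passed after irradiation, and 1 was higher and 0 lower in irradiated ducts than in whole kidney. Each single call is 7.69% of the list, beside 3.32% of all genes lower in the first comparison and 6.40% higher in the last. After irradiation 0.0682% of all genes passed in each direction. The lower gene was dusp4, which encodes a phosphatase of MAP kinases. It read 4.97 and 4.54 in unirradiated ducts, against 6.71 and 7.47 in whole kidney (-2.34 ± 0.30, adjusted p = 0.0157), and 5.72 and 5.95 in irradiated ducts, between the other 2 groups. The feedback inhibitor spry4 read 7.70 and 7.53 in irradiated ducts, against 6.45 and 5.65 in unirradiated ducts (1.57 ± 0.41, adjusted p = 0.241) and 5.27 and 6.32 in whole kidney (1.82 ± 0.41, adjusted p = 0.0482).

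After irradiation the feedback list had a median of 0.32, with irradiated arrays above both unirradiated ones in 8 of 13 genes and under them in 1, against 23.8% and 33.0% of all probe sets and 35.1% and 19.9% of those above the medians on all 6 arrays. Over all genes, with 1 probe set each, these shares were 26.1% and 29.4%. The list's call counts were 0 in that comparison, and 3 of its 13 genes had an unadjusted p under 0.05, against 14.3% of all probe sets. The call of spry4 was kept in 4 of 13 alternatives. It was lost on the compared groups only (adjusted p = 0.0804), a fit that leaving out either unirradiated array repeats. It was also lost without either irradiated array (log2 fold changes of 1.73 and 1.90) and without whole kidney replicate 1 (1.29). The call of dusp4 in unirradiated ducts against whole kidney was kept in 11 of 13 alternatives. It was lost without either unirradiated array (log2 fold changes of -2.56 and -2.12), as was every call of that comparison.

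Of 30 measured adaptors, kinases and other cascade genes, 1 was higher and 0 lower in unirradiated ducts against whole kidney. None passed after irradiation, and 3 were higher and 0 lower in irradiated ducts against whole kidney. The higher genes are 3.33% and 10% of the list, beside 4.11% and 6.40% of all genes. The MAP kinase kinase gene map2k1 read 6.39 and 6.29 in unirradiated ducts, against 5.31 and 5.23 in whole kidney (1.07 ± 0.16, adjusted p = 0.0225; -0.48 when centred on the hybridisation controls). That call was lost on the compared groups only and, like every call of that comparison, without either unirradiated array. The adaptor gene grb2b, whose product links receptors to Ras, had the largest difference after irradiation in this list. It read 10.13 and 10.18 in irradiated ducts, against 7.65 and 6.98 in unirradiated ducts (2.84 ± 0.36, 7.15-fold, adjusted p = 0.0858) and 7.67 and 8.59 in whole kidney (2.03 ± 0.36, adjusted p = 0.0249). The difference after irradiation passed on the compared groups only (adjusted p = 0.0186), a fit that leaving out either kidney array repeats. It also passed with array weights (adjusted p = 0.0135) and when centred, which moved the median of all probe sets to 1.34. Calls over all probe sets after irradiation rose in these settings too. They were 217 on the compared groups only, 243 with array weights and 147 when centred, against 26 in the main fit. The call against whole kidney was lost when centred, on the compared groups only and without either irradiated array. The kinase gene mapk3 read 9.97 and 10.11 in irradiated ducts, against 9.33 and 9.40 in whole kidney (0.67 ± 0.15, adjusted p = 0.046), a call that 1 of 13 alternatives kept.

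Of all genes 4.11% were higher in unirradiated and 6.40% in irradiated ducts against whole kidney. Of 19 measured co-receptors and binding proteins, 1 (5.26%) was higher and 0 lower in each duct group against whole kidney, and 0 passed after irradiation. That gene was sdc4, which encodes a heparan sulphate proteoglycan of the cell surface, with 11.16 and 11.28 in unirradiated ducts, against 9.97 and 10.07 in whole kidney (1.20 ± 0.18, adjusted p = 0.0237; -0.35 when centred on the hybridisation controls). Its call was kept in 9 of 13 alternatives there. In irradiated ducts (1.11 ± 0.18, adjusted p = 0.0205) the call was lost when centred, on the compared groups only and without either irradiated array. Among the other receptor tyrosine kinases and their ligands, 2 of 25 (8%) were higher and 1 (4%) lower in each duct group against whole kidney, and 0 passed after irradiation. Of all genes 3.32% were lower in unirradiated and 5.16% in irradiated ducts. The ephrin receptor gene epha4a read 8.72 and 8.95 in irradiated ducts, 8.16 and 8.42 in unirradiated ducts and 5.23 and 5.27 in whole kidney. Against whole kidney it was higher by 3.59 ± 0.18 in irradiated (adjusted p = 0.00161) and 3.04 ± 0.18 in unirradiated ducts (adjusted p = 0.00374). The Wnt co-receptor kinase gene ror2 was higher in both as well (1.55 ± 0.22 in irradiated and 1.504 ± 0.22 in unirradiated ducts; the second was -0.04467 when centred on the hybridisation controls).

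The gene of that list called lower was tie1 in unirradiated and ephb2b in irradiated ducts. The endothelial receptor gene tie1, also one of the endothelial markers, read 4.82 and 5.08 in unirradiated ducts, against 6.15 and 5.80 in whole kidney (-1.02 ± 0.22, adjusted p = 0.0482), and 3 of 12 alternatives kept that call. The ephrin receptor gene ephb2b read 4.32 and 4.18 in irradiated ducts, against 7.65 and 6.03 in whole kidney (-2.59 ± 0.51, adjusted p = 0.0317). That call was lost when centred, on the compared groups only and without either irradiated array. In unirradiated ducts the log2 fold change of ephb2b was -1.71, which did not pass (adjusted p = 0.102). The duct values of both genes, the unirradiated values of dusp4 and the kidney values of epha4a, ror2 and map2k1 were under the array medians. So were 1 unirradiated and 1 kidney value of spry4, 1 kidney value of tie1 and 1 irradiated value of dusp4. This leaves the sizes of these differences uncertain.

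**Figure D5:**
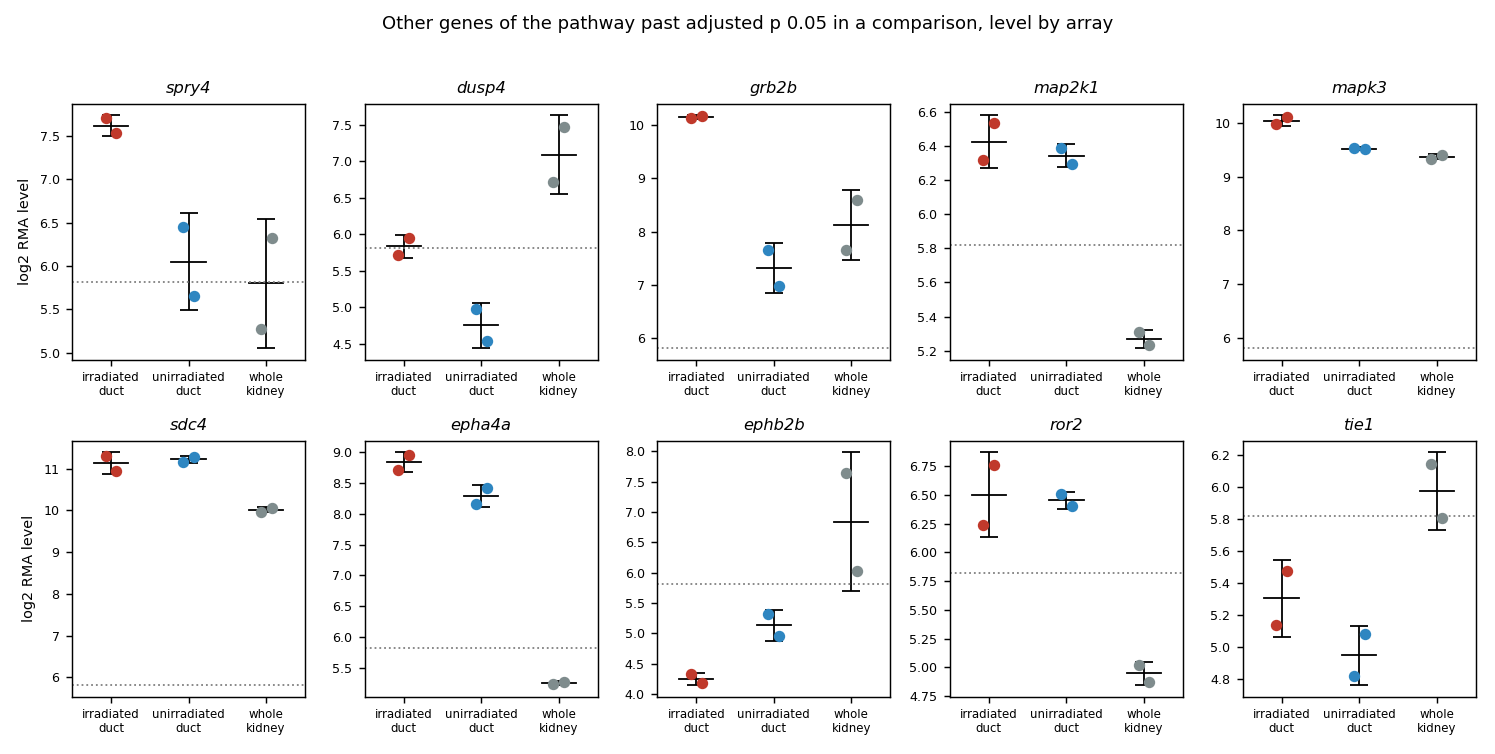
Log2 RMA level (y axis) on each of the 6 arrays for the 10 pathway genes with an adjusted p under 0.05 in a comparison; points are arrays, bars the mean ± SD of 2 arrays, and the dotted line the lowest array median (5.82). In spry4, grb2b and mapk3 both irradiated arrays lay above the other 4 arrays, and in epha4a, ror2, map2k1 and sdc4 all duct arrays lay above both kidney arrays.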

How the data were processed

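The deposited table holds log2 expression values, which the authors obtained by RMA (background correction, quantile normalisation and probe set summary) with the affy package, per the submitters' processing notes, which name no versions. These values were used as they are. After 115 control probe sets had been set aside, limma 3.58.1 under R 4.3.3 was fitted to the other 15502 with a mean for each group over all 6 arrays (3 residual degrees of freedom). Names are from the platform annotation, made current by Entrez ID with a RefSeq gene table (GRCz12tu, names only). One gene was named by 10795 probe sets, several by 135 and none by 4572. The 39 genes had 43 probe sets. The genes, lists and tests were chosen with earlier results of these data known.

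Named genes were those past the threshold, the 4 largest and 4 lowest log2 fold changes of ligands and of receptors in each comparison, the 6 ligands and 6 receptors with the highest means, and pathway genes past the threshold. Other members, dcn and prrx1a were named after their values were seen. Arrays with the same replicate number did not deviate together (correlations of -0.0976, 0.0633 and -0.0972 between groups). Alternatives were a replicate block, the compared groups only, trend and robust eBayes, array weights, a filter on low probe sets, centring on hybridisation controls, the mean of a gene's probe sets and leaving out each array. Leaving out an array of the group not compared repeats the compared groups only, so counts of alternatives include that fit more than once. No sequences were used here.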

Additional observations from a re-analysis of the deposited data

How the results depend on the processing

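The count of growth factor and receptor genes past the threshold was 5 to 6 in unirradiated ducts against whole kidney under the replicate block (5), the compared groups only, trend and robust, array weights, the filter on low probe sets and the mean of a gene's probe sets. It was 3 (0 higher, 3 lower) when centred on the hybridisation controls, and 0 to 9 without single arrays. After irradiation it was 0 under all 13 alternatives. In irradiated ducts against whole kidney it was 4 to 7 under the same 6 settings, 7 with the block, 0 when centred, and 2 to 10 without single arrays. The call of erbb2 in unirradiated ducts was lost with the block (adjusted p = 0.0599), on the compared groups alone (0.0512) and with array weights (0.0762). It was also lost without either unirradiated array, as was every call of that comparison. The block lost no other call of the 39 genes and added that of pdgfrl in irradiated ducts against whole kidney. It took the counts over all probe sets to 812, 0 and 1393, against 1126, 26 and 1620 in the 3 comparisons, so the myeloid and lymphoid calls after irradiation were lost. Of the pathway calls it lost those of spry4 (adjusted p = 0.0783) and mapk3 in irradiated and tie1 in unirradiated ducts against whole kidney.

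Centring on the hybridisation controls moved the median of all probe sets to -1.54, 1.34 and -0.21 for unirradiated ducts over kidney, for irradiated over unirradiated ducts and for irradiated ducts over kidney. Medians of ligands and receptors became -1.33 and -1.48, 1.30 and 1.14, and -0.14 and -0.21 in the same order, and map2k1 (-0.48), sdc4 (-0.35) and ror2 (-0.04467) changed sign in unirradiated ducts against kidney. With low probe sets left out the ligand median was 0.57, 0.23 and 0.88, over 9 ligands, and the receptor median in irradiated ducts against kidney was -0.19. Without single arrays the ligand medians ranged from 0.0557 to 0.39, from -0.19 to -0.0511 and from -0.0425 to 0.12, and the receptor medians from 0.0511 to 0.20, from -0.29 to -0.19 and from -0.22 to 0.13. Beyond the steps named the causes were not tested. An array left alone in its group was taken to vary like the others. Without either kidney array the spread thus came from the duct arrays alone, which were more alike. The 2 arrays a group limit every value.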
